A study of Mus musculus with 26 samples.

Results

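Sequential chromatin immunoprecipitation (reChIP) pulls down chromatin with one antibody and then, from that eluate, with another, to enrich fragments that carry both marks. The paper names carry-through of signal from the first pull-down into the second as a common caveat. A reChIP region therefore need not carry both marks. In E14 mouse embryonic stem cells 21970 regions of total H3K4me3 were deposited. Of these, 3607 overlapped by 1 bp or more neither a region of the K4-K27 reChIP (H3K4me3 first, H3K27me3 second) nor a region of the K27-K4 reChIP (the reverse order), out of 24540 and 36235 reChIP regions in E14. The other 18363 H3K4me3 regions overlapped at least 1 of them. Both deposited reChIP sets are larger than the peak sets that the paper counts. The 3607 regions are called H3K4me3 regions without reChIP below, and the values that chose them are the E14 H3K4me3 and E14 reChIP region calls, so all E14 values are given as description with no test.

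Of the 26 libraries, 9 came from unmodified E14 cells, 9 from wild-type (WT) clones 57 and 58 and 8 from Dppa2/4 double knockout (DKO) clones 43 and 53, also E14 cells, all grown without feeders in serum and LIF on gelatin. With 2 replicates (E14) or clones (WT and DKO) each, both reChIP orders and the totals of H3K27me3 and H3K4me3 were sequenced from the same chromatin, and IgG-IgG, a mock reChIP that gives the background, once for E14 and once for WT clone 57. The WT library served as background for the DKO clones too. E14 replicate 1, E14 replicate 2 and the clones were each sequenced in a batch of their own, so the line and the batch cannot be told apart in any comparison of E14 with the clones, while both genotypes shared 1 batch. All levels below are on a log2 scale of RPM per kb (reads scaled to the library and to region width), and a difference is between such levels. The 2 clones per genotype are single lines, and p-values below measure the spread between clones. Libraries held 6741244 to 47903462 reads, and the median region of the set held 2 to 44 reads, so single regions rest on few reads. The H3K4me3 antibody may also bind H3K4me2, according to the methods of the study. Dppa2, one of the deleted genes, had 1 total H3K4me3 region at its start site, which was not among the regions without reChIP. That Dppa2 region stood at 1.94 and 0.88 in WT clones 57 and 58 and at 2.14 and 1.33 in DKO clones 43 and 53. Dppa4 had no total H3K4me3 region at its start site, and since the deleted stretch was not given in the sources used here, the mark at Dppa2 checks no label.

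H3K4me3 is laid down mainly around the start sites of active and CpG-rich genes, and H3K27me3 is deposited by Polycomb repressive complex 2 at genes held silent. Promoters that carry both are termed bivalent and in embryonic stem cells often belong to developmental genes. H3K4me3 that no reChIP recovers can be of several known kinds, such as H3K4me3 without H3K27me3 at housekeeping promoters and weak H3K4me3 or H3K4me2 along gene bodies and at enhancers. DPPA2 and DPPA4 are a heterodimer that keeps a subset of bivalent promoters marked.

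The sequence of these regions differed from that of the other H3K4me3 regions, so the central 300 bases of 9 regions are printed (mm10, plus strand, 5′ to 3′, read from the GRCm38.p6 sequence, CpG in capitals). The first 4 had high H3K4me3 over IgG-IgG in the WT clones: Pknox1 and Kmt5c at promoters, Gm38944 and Kdm4c in introns.
Pknox1 (chr17:31563826-31564125): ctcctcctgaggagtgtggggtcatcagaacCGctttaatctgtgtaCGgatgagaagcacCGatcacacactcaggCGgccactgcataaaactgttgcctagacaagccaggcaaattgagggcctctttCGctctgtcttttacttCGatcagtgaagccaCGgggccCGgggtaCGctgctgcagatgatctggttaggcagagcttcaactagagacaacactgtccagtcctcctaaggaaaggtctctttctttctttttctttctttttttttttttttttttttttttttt
Kmt5c (chr7:4739026-4739325): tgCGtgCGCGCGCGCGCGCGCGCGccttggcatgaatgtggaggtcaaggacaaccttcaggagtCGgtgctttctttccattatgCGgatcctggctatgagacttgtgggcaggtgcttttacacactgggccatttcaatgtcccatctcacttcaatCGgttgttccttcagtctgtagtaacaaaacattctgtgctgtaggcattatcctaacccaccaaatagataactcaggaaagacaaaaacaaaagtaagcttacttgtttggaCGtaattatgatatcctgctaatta
Gm38944 (chr7:6343876-6344175): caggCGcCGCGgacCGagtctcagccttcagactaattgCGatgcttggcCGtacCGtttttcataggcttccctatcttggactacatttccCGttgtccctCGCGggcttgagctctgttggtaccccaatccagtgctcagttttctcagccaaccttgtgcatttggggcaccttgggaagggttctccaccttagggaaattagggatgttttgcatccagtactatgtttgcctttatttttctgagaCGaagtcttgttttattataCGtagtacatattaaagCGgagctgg
Kdm4c (chr4:74258776-74259075): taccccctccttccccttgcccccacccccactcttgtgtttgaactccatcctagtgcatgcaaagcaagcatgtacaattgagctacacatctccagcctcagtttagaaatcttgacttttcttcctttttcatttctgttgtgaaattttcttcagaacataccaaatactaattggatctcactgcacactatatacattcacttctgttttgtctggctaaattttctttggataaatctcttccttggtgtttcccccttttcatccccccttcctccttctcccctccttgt
Regions inside Gm12132 and Zfp369 lost H3K4me3 in the DKO clones.
Gm12132 (chr11:40249201-40249500): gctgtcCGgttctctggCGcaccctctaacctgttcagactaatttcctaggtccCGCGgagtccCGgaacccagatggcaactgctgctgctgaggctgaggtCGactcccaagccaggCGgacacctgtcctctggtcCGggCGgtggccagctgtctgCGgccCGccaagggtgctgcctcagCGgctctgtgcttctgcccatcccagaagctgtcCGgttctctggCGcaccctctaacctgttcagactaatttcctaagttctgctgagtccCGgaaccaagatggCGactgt
Zfp369 (chr13:65303701-65304000): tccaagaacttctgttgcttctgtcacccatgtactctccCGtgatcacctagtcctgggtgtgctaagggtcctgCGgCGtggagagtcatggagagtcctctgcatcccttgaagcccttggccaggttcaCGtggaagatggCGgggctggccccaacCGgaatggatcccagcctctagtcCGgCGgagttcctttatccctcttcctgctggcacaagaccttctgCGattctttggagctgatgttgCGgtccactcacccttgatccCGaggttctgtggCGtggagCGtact
Regions at Tyw5 and inside Gpbp1 and Hipk1 gained H3K4me3 in the DKO clones.
Tyw5 (chr1:57408151-57408450): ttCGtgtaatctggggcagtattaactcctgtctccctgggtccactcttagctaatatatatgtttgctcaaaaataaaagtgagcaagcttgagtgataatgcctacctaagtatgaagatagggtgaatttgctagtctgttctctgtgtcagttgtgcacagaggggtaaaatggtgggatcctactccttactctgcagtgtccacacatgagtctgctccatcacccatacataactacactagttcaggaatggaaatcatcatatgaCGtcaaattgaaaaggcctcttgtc
Gpbp1 (chr13:111472051-111472350): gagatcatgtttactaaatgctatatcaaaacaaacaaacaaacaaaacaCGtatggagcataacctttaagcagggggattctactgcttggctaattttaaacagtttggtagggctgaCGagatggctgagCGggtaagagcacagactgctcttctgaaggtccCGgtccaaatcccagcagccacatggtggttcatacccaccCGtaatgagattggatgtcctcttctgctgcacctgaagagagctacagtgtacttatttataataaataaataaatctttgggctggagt
Hipk1 (chr3:103787401-103787700): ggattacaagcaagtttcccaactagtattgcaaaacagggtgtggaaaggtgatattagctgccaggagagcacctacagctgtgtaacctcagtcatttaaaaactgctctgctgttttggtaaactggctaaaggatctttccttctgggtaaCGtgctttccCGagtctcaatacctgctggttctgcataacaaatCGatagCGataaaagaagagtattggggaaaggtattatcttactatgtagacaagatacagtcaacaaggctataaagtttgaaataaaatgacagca
The Pknox1 window held 9 CpG, Kmt5c 14, Gm38944 13 and Kdm4c 0. The windows that fell in DKO held 16 (Gm12132) and 13 (Zfp369), and those that rose held 2 (Tyw5), 5 (Gpbp1) and 4 (Hipk1). The 2 fallen windows printed come from the most CpG-rich of the fallen regions named. Their whole regions had 5.33 and 4.33 CpG per 100 bases. Morc1, Klhl13 and Alkbh8, which also fell, had 3.11, 2.44 and 1.73, and Rictor, which rose, had 2. All these calls were lost without either DKO clone, as given below. Over all regions without reChIP the median was 3 CpG per 300-base window, against 11 in the H3K4me3 regions with reChIP. No CpG at all was found in 354 windows without reChIP (9.81%), against 0.828% of the windows with reChIP.

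The regions without reChIP were narrow and lay mostly away from start sites. Their median width was 750 bp (interquartile range 450 to 1350, from 300 to 11100), against 2250 bp for regions with reChIP. The narrowest class, 300 bp, held 844 of them (23.4%) and 1.2% of the others. Only 294 (8.15%) lay at a promoter, defined as a RefSeq start site within 1.5 kb, against 66.4% of the regions with reChIP. Introns held 1792 (49.7%), exons 290 (8.04%) and intergenic sequence 1231 (34.1%), against 14.3%, 7.51% and 11.8% of the regions with reChIP. Regions at promoters and in exons were wider, with medians of 1050 and 1200 bp, than those in introns (900 bp) and intergenic sequence (450 bp). Of all 300-bp H3K4me3 regions, 79.3% had no reChIP region, and of those of 2550 bp or more, 3.05%. A wider region has more bases in which an overlap can be found, and the part of width itself in the choice was not tested.

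**Figure D1:**
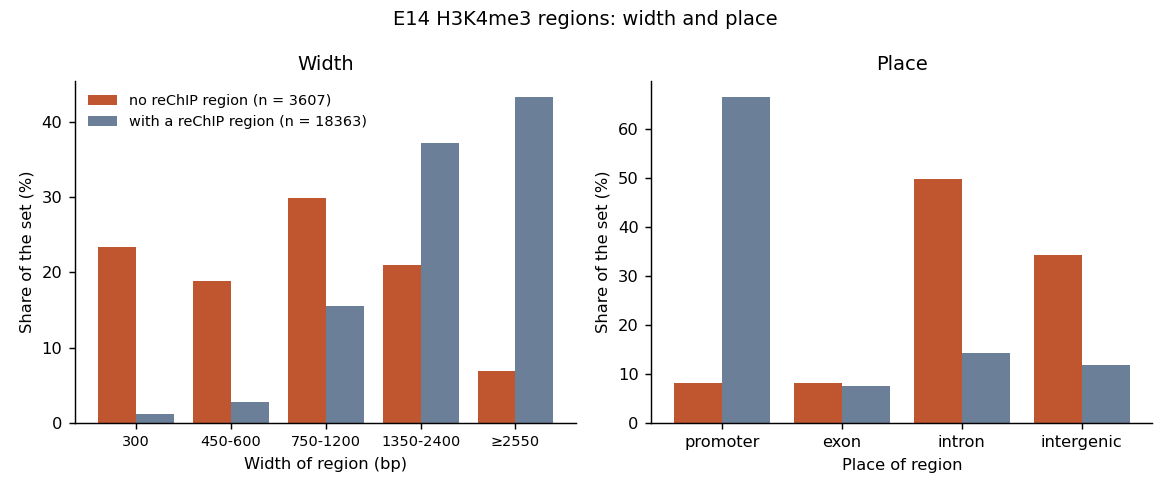
Share of each set (%) by width in bp (left) and by place relative to RefSeq genes (right), for H3K4me3 regions without (n = 3607) and with (n = 18363) an E14 reChIP region. Introns held 49.7% of the regions without reChIP, and promoters held 66.4% of the others.

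The median distance to the nearest reChIP region was 10050 bp, 536 (14.9%) lay within 1 kb and 1807 (50.1%) beyond 10 kb. The edge of the rule was sharp on the 150-bp grid of the files: 168 regions lay 0 or 150 bp from a reChIP region, 78 of them abutting, such as regions inside Tcea1, a transcription elongation factor, and Prim2, a primase subunit. On the other side 43 regions were left out for an overlap of 150 bp, such as those at Lincmd1 and Hnrnpa3. In E14 K4-K27 the regions just inside the rule stood at -2.16 and -0.49 (Tcea1) and -0.99 and 0.84 (Prim2) in replicates 1 and 2, and those just left out at 1.42 and 0.63 (Lincmd1) and -2.16 and -2.95 (Hnrnpa3). The levels thus overlapped across the edge.

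The regions were CpG-poor at every place. Regions without reChIP had a median of 1.08 CpG per 100 bases and 46.0% G or C, against 3.17 and 52.3% with reChIP. More than 3 CpG per 100 bases were found in 64 of them (1.77%), against 54.5%. At their promoters the median was 1.47 CpG per 100 bases, against 3.64 at promoters with reChIP. It was 1.44 against 2.67 in exons, 1.07 against 2.07 in introns and 0.89 against 2.29 in intergenic sequence. Annotated repeats filled a median of 21.5% of the sequence, against 13% with reChIP, and more than 50% of the sequence in 470 regions (13%), against 1.84%. Short motifs, searched on both strands of the central 300 bases, moved with base composition and are a description. The letters GGGCGG, read by SP1, were in 7.26% of windows without reChIP and 30.3% of the windows of all H3K4me3 regions, and CGCG in 6.93% against 40.4%. The A- and T-rich strings went the other way, with TATAAA, the letters of a core promoter element, in 15.2% against 8.57% and AGATAA in 15.4% against 9.42%. Among strings read by pluripotency factors, ATGCAAAT (the octamer) was in 2.11% against 1.17% and TCAAGGTCA (ESRRB) in 1.05% against 0.605%, while ACAATGG (SOX2) was in 4.02% against 2.93% and GGGTGTGGC (KLF4) in 0.943% against 0.828%. By place, the ESRRB string was in 2.72% of windows at promoters, 1.51% in introns, 0.244% in intergenic sequence and 0% in exons.

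In E14 the mark was weak as well as narrow. Total H3K4me3 stood at a median of 0.45 and 0.85 in replicates 1 and 2, against 0.91 and 1.30 with reChIP. Over IgG-IgG these were 1.27 and 1.71, close to the 1.40 and 1.82 of regions with reChIP. The median region held 13 and 39 reads in the H3K4me3 libraries and 3 reads in IgG-IgG. Across the regions, the replicates' H3K4me3 levels had a correlation of -0.03, against 0.55 over regions with reChIP, both over the same libraries, given as a description. E14 K4-K27 stood at -1.80 and -0.41 and K27-K4 at -0.60 and -0.43, against -0.16 and 1.41, and 1.04 and 2.15, with reChIP, which is the choice of the set seen again. The median E14 IgG-IgG level of the set was -0.89. K4-K27 of replicate 1 lay below it, and K4-K27 of replicate 2 and K27-K4 of both replicates lay above it. Without reChIP thus means without a called reChIP region. Total H3K27me3 lay below IgG-IgG in both replicates, by -0.48 and -0.70 in the median, although at intergenic regions the medians were 0.11 and 0.15 above it.

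**Figure D2:**
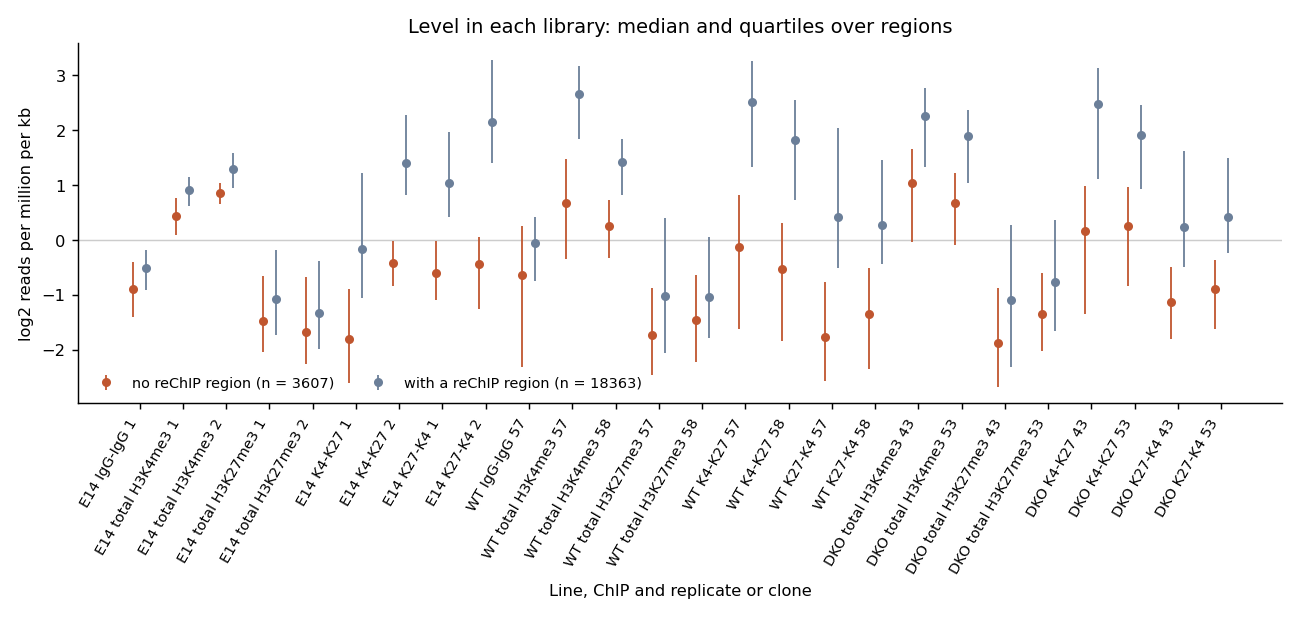
Median and quartiles over regions of the log2 RPM per kb in each of the 26 libraries, for H3K4me3 regions without and with an E14 reChIP region. Without reChIP the median total H3K4me3 ran from 0.26 to 1.03 in the clones, below that of the other regions in each clone.

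The WT and DKO clones, which the choice did not use, carried H3K4me3 at some of these regions. Of the 3607 regions, 1357 (37.6%) overlapped a total H3K4me3 region of the WT clones and 1851 (51.3%) one of the DKO clones, against 85.9% and 78.6% of the regions with reChIP. Promoters were found again most often, with 64.3% in WT and 73.8% in DKO, and intergenic regions least, with 32.2% and 33.9%. The overlap grew with width: in the WT clones it was 7.94% at 300 bp and 79.6% at 2550 bp or more, against 37.3% and 95.7% with reChIP. Both genotypes held 1237 of the regions, which were wider (median 1350 bp). Neither held 1636 (45.4%), with a median width of 450 bp, 0.67 CpG per 100 bases and 47.4% intergenic. The 614 held by the DKO clones alone were 75.1% intronic and lay a median of 8479.5 bp from a start site, and 120 were held by the WT clones alone. All 4 clone H3K4me3 libraries were above the WT IgG-IgG library at 2326 regions (64.5%), against 89.0% with reChIP. Where that IgG-IgG library had at least 1 read, the count was 1533 of 2651 (57.8%).

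Some of the regions were reChIP regions in the clones although not in E14. K4-K27 regions of the WT clones overlapped 384 (10.6%) and those of the DKO clones 867 (24.0%), against 76.9% and 76.4% of the regions with reChIP. In the K27-K4 order the counts were 18 (0.499%) and 34 (0.943%), against 41.3% and 38.7%. Total H3K27me3 regions of the WT and DKO clones overlapped 4 and 8. In all, 966 regions (26.8%) met a reChIP region of the clones, and 461 (12.8%) had H3K4me3 regions in both genotypes and no reChIP region in either. Nearly all of these overlaps came from the order that began with H3K4me3.

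The levels in the clones had the same order of ChIPs. Total H3K4me3 over IgG-IgG was at a median of 1.46 and 1.01 in WT clones 57 and 58 and 1.72 and 1.45 in DKO clones 43 and 53. K4-K27 stood at 0.69 and 0.47 in WT and 0.73 and 0.94 in DKO, and K27-K4 at -0.80, -0.49, -0.49 and -0.20 in the same clones. The only IgG-IgG library of the clones had 0 reads at 956 of the regions. At the other 2651 regions the H3K4me3 medians were 1.11 and 0.55 in WT and 1.33 and 0.98 in DKO, and those of K4-K27 were 0.20 and -0.36 in WT and 0.50 and 0.52 in DKO. Where background was measured, K4-K27 was thus above IgG-IgG at 54.3% of the regions in WT clone 57, 42.3% in WT clone 58, 59.4% in DKO clone 43 and 62.3% in DKO clone 53. Total H3K27me3 lay below IgG-IgG in all 4 clones, from -1.03 to -0.70.

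Within a clone, each reChIP could be set against total H3K4me3 at the same regions over the 4 clones, which asks whether the set stayed apart in cells that did not define it. K4-K27 was lower than total H3K4me3 by a median log2 difference of -0.76, against -0.04 over regions with reChIP and -0.12 over all. With limma and Benjamini-Hochberg adjustment over all 21970 regions, at a log2 difference above 1 and adjusted p under 0.05, 319 of the 3607 regions were lower and 3 higher, where 2.54% of all regions were called lower, 7.61% higher and 10.2% in either direction. K27-K4 was lower by -2.04 in the median, against -1.44 with reChIP and -1.58 over all, and 2467 regions were called lower and 40 higher, where 58.6% and 10.8% of all were (69.4% in either direction). Promoters without reChIP were furthest down, with a median of -2.61 and 261 of 294 called lower (88.8%), and intergenic regions least, at -1.04. The regions with reChIP had the same order, from -1.84 at promoters, 62.1% of them called lower, to -0.80 in intergenic sequence. The K4-K27 count moved with the processing. With the clone as a block 690 were lower and 12 higher, where 6.06% and 10.1% of all were. Quantile normalisation left 143 lower and 66 higher, where 1.18% and 7.66% of all were. It moved the median of the set to -0.21, close to the -0.15 of all regions. Leaving out DKO clone 43 or 53 left 0 or 58 lower, where 0% or 0.423% of all were. Without WT clone 58 the count was 483 lower, where 4.11% of all were. Centring each library on its median moved the all-region K27-K4 median to 0.17 and that of the set to -0.29, with 718 lower (19.9%, against 18.3% of all) and 529 higher (14.7%, against 34.0%). Quantile normalisation moved these medians to -0.11 and -0.29, with 752 lower (20.8%, against 27.8%) and 547 higher (15.2%, against 27.5%). The median of the set thus lay below that of all regions under each scaling, but after quantile normalisation a smaller share of the set than of all regions was called lower.

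The few regions with more reChIP than total H3K4me3 were narrow and held few reads. In K4-K27 the largest was a 300-bp region near Gm20756, where the reChIP libraries of WT 57, WT 58, DKO 43 and DKO 53 stood at 1.70, 0.90, 0.66 and 0.62 and total H3K4me3 at -2.66, -1.32, -3.03 and -2.86 (log2 difference 3.44, SE 0.766, limma adjusted p = 0.000855). Every reChIP value there was above every total, although those reChIP libraries held 5 to 9 reads. Regions inside Caprin1, an RNA-binding protein of stress granules, and at the promoter of Zfp455, a zinc finger gene, followed with 2.19 and 2.14. In K27-K4 the leading regions were near 4930502A04Rik, near Atp10a and inside Armh4, with 2.68, 2.22 and 2.19. Background was high at some of these: at 4930502A04Rik the WT IgG-IgG library (2.36, 23 reads) was above all 4 K27-K4 libraries, at Armh4 (0.84) above 3 of them and at Caprin1 (0.84) above 3 of the 4 K4-K27 libraries. The call of Gm20756 was lost without DKO clone 43, that of Zfp455 without 43 or 53 and that of Caprin1 without 43, 53 or 57.

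Between genotypes, total H3K4me3 at these regions tended to be higher in the DKO clones. The median level was 0.67 and 0.26 in WT clones 57 and 58 and 1.03 and 0.67 in DKO clones 43 and 53. At the regions with reChIP it was 2.66 and 1.42 against 2.27 and 1.9. The median log2 difference was 0.33 (interquartile range -0.07 to 0.71), against 0.05 with reChIP and 0.08 over all regions. By place it was 0.47 in introns, 0.39 in exons, 0.26 at promoters and 0.13 in intergenic sequence. Both DKO clones were above both WT clones at 1094 regions (30.3%), where 8.63% of all H3K4me3 regions were, and below at 310 (8.59%), where 12.7% were. Only 7 regions were called higher and 6 lower by limma, where 0.0364% and 2.04% of all were called (2.08% in either direction). The counts turned on the processing. Centring gave 109 higher and 27 lower, where 0.856% and 5.35% of all were called, and quantile normalisation 242 and 16, where 1.83% and 4.71% were. Leaving out DKO clone 43 or 53 gave 0 in either direction, leaving out WT clone 57 gave 104 higher and 5 lower (0.865% and 0.692% of all) and leaving out WT clone 58 gave 103 and 54 (0.542% and 7.38%). The median difference of the set was above 0 under every setting tried, from 0.06 to 0.58, but without WT clone 57 it was 0.58 against 0.67 for the regions with reChIP, so the order of the sets turned there.

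**Figure D3:**
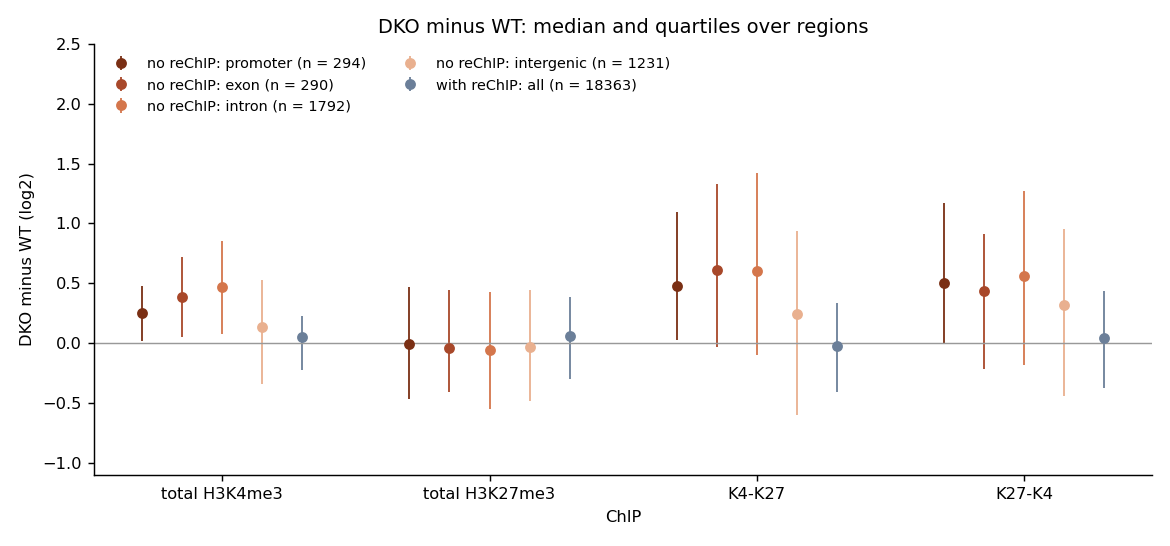
DKO minus WT (log2, mean of 2 clones each) for each ChIP: medians and quartiles over regions without reChIP by place, and over all regions with reChIP. Introns lay highest in total H3K4me3 (0.47), and total H3K27me3 stayed near 0 in every class.

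Of the regions called higher, the widest margin was in a 300-bp region 1477 bp from the start site of Tyw5, an enzyme of transfer RNA modification, at -2.50 and -1.32 in WT clones 57 and 58 and 1.29 and 1.39 in DKO clones 43 and 53 (1, 2, 20 and 19 reads; log2 difference 3.26, SE 0.753, limma adjusted p = 0.00224). The groups lay far apart, but the rank of this region rests on WT libraries of 1 and 2 reads. The WT IgG-IgG library, with 6 reads, was above both WT H3K4me3 libraries. An intronic region of Gpbp1, which encodes a GC-rich promoter binding protein, stood at -1.51 and -0.74 in WT and 2.14 and 1.23 in DKO (2.81, SE 0.668, limma adjusted p = 0.00337). An intronic region of Rictor (chr15:6714751-6715350), a subunit of mTOR complex 2, stood at -1.18 and -0.52 against 1.83 and 1.72 (2.63, SE 0.655, limma adjusted p = 0.00625). The groups did not overlap at either region. A region of the kinase gene Hipk1 stood at 0.95 and -2.32 against 2.56 and 1.31 (2.62). As the sequences above show, the Tyw5 window held the fewest CpG of the 3 printed. The IgG-IgG level was above the mean WT H3K4me3 level at 3 of these 4 regions, Gpbp1 being the exception. The 4 calls were lost without either DKO clone, and that of Hipk1 also without WT clone 58.

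The largest loss was inside Gm12132, at a 300-bp region that stood at 1.5 and 0.68 in WT and -3.18 and -2.86 in DKO (16, 8, 0 and 1 reads; log2 difference -4.11, SE 0.902, limma adjusted p = 0.00101). Its sequence was annotated as repeat over 100% of its length, and the WT IgG-IgG library held 12 reads there, near the level of the WT H3K4me3 libraries. Inside Morc1, a germline gene that represses transposons, a region (chr16:48497851-48498300) 185100 bp from the Dppa2 region stood at 1.23 and 0.41 in WT and -1.03 and -3.45 in DKO (-3.06, SE 0.843, limma adjusted p = 0.0192). Regions inside Klhl13 (1.37 and 0.90 against -2.03 and -1.45), Zfp369 (1.67 and 1.38 against -0.22 and -1.86) and Alkbh8 (1.46 and 0.44 against -1.76 and -1.38) fell by 2.87, 2.56 and 2.52. Klhl13 encodes a ubiquitin ligase adaptor, Zfp369 a zinc finger protein and Alkbh8 a transfer RNA methyltransferase. The WT and DKO values overlapped at none of the 5. These calls too were lost without either DKO clone, and those of Gm12132, Morc1, Klhl13 and Alkbh8 also without WT clone 57. None of the 1231 intergenic regions without reChIP was called in either direction, although calls in the set were few. Of the intergenic regions with reChIP, 7.60% were called lower, against 1.19% of promoters and 2.48% of introns with reChIP.

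**Figure D4:**
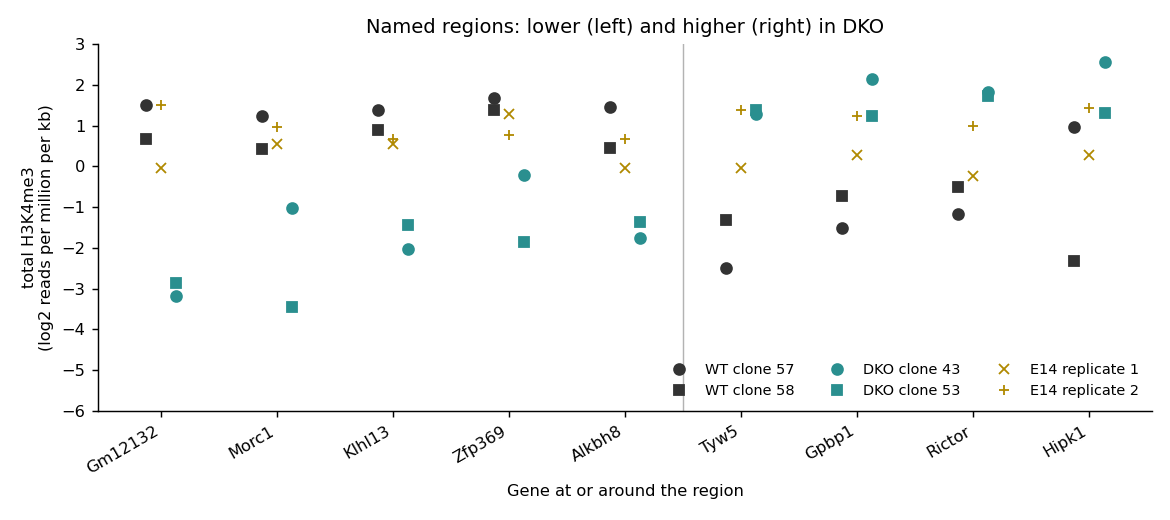
Total H3K4me3 (log2 RPM per kb) in each WT and DKO clone and E14 replicate at the 9 named regions without reChIP that were called lower (left) or higher (right) in DKO. DKO and WT values overlap at none of them.

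Several genes held many of these regions in their bodies. Regions without reChIP lay in the bodies of 1598 genes with a RefSeq start site, 1260 of which (78.8%) had an H3K4me3 promoter region with reChIP, against 52.6% of all genes. Of the exonic and intronic regions, 1675 of 2082 (80.5%) lay in such a gene, against 60.6% of exonic and intronic regions with reChIP. Jarid2, a subunit of Polycomb repressive complex 2, held 17, all intronic. At the Jarid2 regions the median H3K4me3 was 0.45 and 0.34 in WT and 1.31 and 1.04 in DKO, and 16 of 17 had a difference above 0, where 78.5% of the intronic regions without reChIP and 59.2% of all H3K4me3 regions did. Both DKO medians were thus above both WT medians, although the regions of a gene share its chromatin and are not independent. Enah, an actin regulator, Gpbp1 and Tmem131 held 9 each, with median differences of 0.56, 1.19 and 1.12. At the other end were Etl4, with 0.11 and 5 of 7 regions above 0, and Atf7ip, with 0.12 and 6 of 8. Tet2, which oxidises 5-methylcytosine, held 7, each within H3K4me3 regions of both genotypes, with 1.23 and 0.55 in WT and 2.12 and 1.45 in DKO. Rybp, a subunit of Polycomb repressive complex 1, held 7 at -0.18 and 0.13 against 1.33 and 0.69. These genes were chosen by their number of regions after the values were seen.

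**Figure D5:**
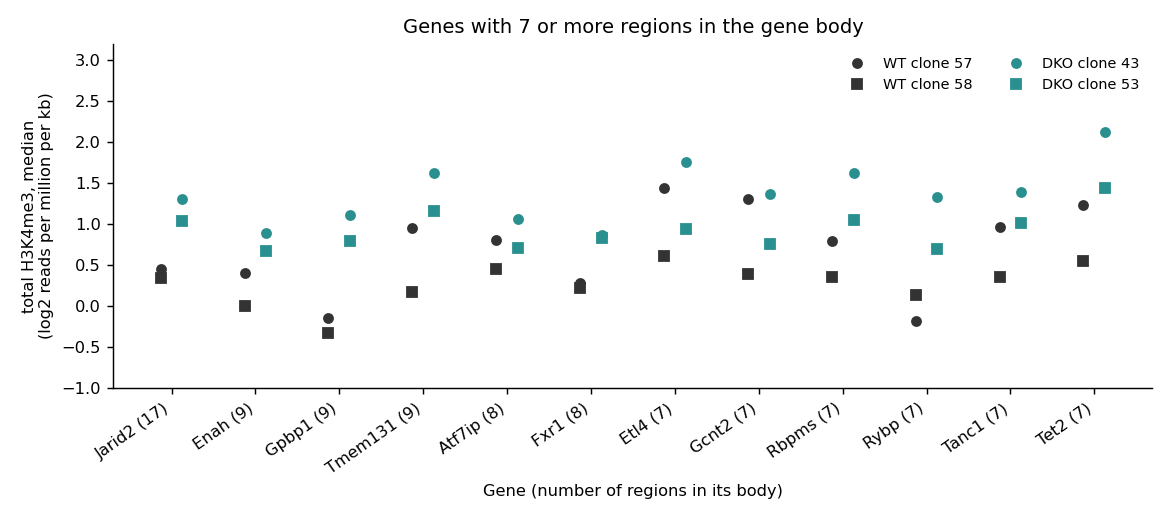
Median total H3K4me3 (log2 RPM per kb) in each clone over the regions without reChIP inside a gene, for 12 genes with 7 or more such regions. The Jarid2 median is 0.45 and 0.34 in the WT clones and 1.31 and 1.04 in the DKO clones.

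The reChIP levels moved the same way without many calls. In K4-K27 the median difference was 0.46, against -0.03 with reChIP and 0.02 over all, and both DKO clones were above both WT clones at 1063 regions (29.5%), where 15.6% of all were. Of the regions, 33 were called higher and 3 lower, where 0.314% and 2.3% of all were (2.62% in either direction). An intronic region of Atm, the DNA damage kinase, had 0 reads in both WT K4-K27 libraries and 30 and 21 reads in DKO, at least 7.12-fold higher on a floor of 3 reads per library. An intronic region of Jarid2 had 0 and 0 against 19 and 18 reads, at least 5.25-fold higher, and one of Ywhaz, a 14-3-3 protein, 0 and 6 against 55 and 59 reads (log2 difference 4.38, SE 1.16, limma adjusted p = 0.00987). The WT IgG-IgG library held 23 reads at the Atm region, a level of 1.04 beside 1.92 and 1.11 in DKO K4-K27, and 56 reads at Ywhaz, 1.33 beside 1.80 and 1.60, and 0 at Jarid2. Background at Atm and Ywhaz was thus above both WT K4-K27 libraries. Regions near Gm14391, inside Fyn and near Ptchd3 were the 3 called lower, with log2 differences of -3.0, -2.78 and -2.61. Leaving out a clone moved the counts and leaves 1 library in a group. Without WT clones 57 and 58 the median difference of the set was 0.69 and 0.24, against 0.33 and -0.34 over all regions. The median difference of the set was 0.55 and 0.48 without clones 43 and 53, with 1 DKO library left and a median SE of 1.52 in place of 1.07. Centring left 6 higher and 0 lower, where 0.173% and 3.32% of all were called. Quantile normalisation left 3 and 0, where 0.132% and 2.28% of all were. Without the variance trend 210 were higher and 59 lower, where 1.57% and 3.59% of all were.

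K27-K4 had a median difference of 0.45, against 0.04 with reChIP, and both DKO clones were above both WT clones at 1044 regions (28.9%), where 23.2% of all were. The calls were even, with 63 higher and 61 lower, where 1.16% and 4.61% of all were called (5.77% in either direction). Quantile normalisation took the median to 0.08, no further from 0 than the 0.09 of all regions. It left 16 higher and 9 lower, where 0.919% and 3.60% of all were called. Centring gave 43 and 44, where 0.751% and 4.06% of all were. Leaving out clone 43, 53, 57 or 58 moved the counts and gave median differences of 0.57, 0.36, 0.24 and 0.59. Over all regions these were 0.14, 0.04, 0.14 and -0.04. A region near Vwc2 had 0 reads in both WT libraries and 12 and 14 in DKO, at least 3.55-fold higher. Regions inside Cntnap2, a neuronal adhesion protein, and Cct7, a chaperonin subunit, rose by 3.78 and 3.48 from 1 and 1 to 20 and 14 reads and from 3 and 1 to 22 and 25 reads. Regions inside 4933400C23Rik and Fkbp3, a prolyl isomerase, and near Slitrk1 fell by 3.22, 3.04 and 3.18. All these K27-K4 calls rested on few reads, and those of Cntnap2 and Cct7 were lost without either DKO clone, that of Vwc2 without clone 53 and those of Fkbp3 and Slitrk1 without WT clone 58.

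Total H3K27me3 did not lean, with a median of -0.04 against 0.06, and 27 higher and 17 lower calls, where 0.401% and 0.874% of all were called (1.27% in either direction). Both DKO clones were above both WT clones at 15.7% of the regions, where 20.6% of all were. The H3K27me3 counts were 31 and 51 after centring, where 0.487% and 1.08% of all were called. They were 1 and 1 after quantile normalisation, where 0.0501% and 0.665% of all were. Leaving out clone 43, 53, 57 or 58 moved the counts and gave medians of 0.23, -0.24, -0.17 and 0.07. Over all regions these medians were 0.23, -0.10, 0.06 and 0.0005. Among the leading ones were regions inside Tspan14 (3.07) and Gm40102 (2.64) and, downward, inside Slc39a10 (-2.58) and Magi1 (-2.25) and near Bpnt2 (-2.38), all with 24 reads or fewer in each H3K27me3 library.

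Whether the step from total H3K4me3 to a reChIP differed between genotypes was tested as an interaction. On simulated data this fit recovered 10% (K4-K27) and 20.5% (K27-K4) of shifts of 3 log2 units, so an absent call does not show an absent difference. For K4-K27 no region was called by limma (0% of all), with 128 of the set above and 64 below 0 at an unadjusted p under 0.05, where 282 and 155 of all 21970 regions were, and 3 and 1 called with the clone as a block, out of 8 and 5 in all. For K27-K4 1 region was called, in the set and in the whole table (0.00455% of all), in a 450-bp region (chr8:60842401-60842850) near Hpf1, a cofactor of poly(ADP-ribose) polymerases. Total H3K4me3 there was 3.6 and 1.73 in WT clones 57 and 58 and 1.25 and 0.55 in DKO clones 43 and 53 (101, 25, 29 and 16 reads). K27-K4 was -1.25 and -3.09 against 1.31 and 0.38 (3, 0, 26 and 10 reads). H3K4me3 was thus higher and K27-K4 lower in both WT clones (interaction 4.76 on the log2 scale, SE 0.875, limma adjusted p = 0.00113). The call was lost after centring (limma adjusted p = 0.396), after quantile normalisation (limma adjusted p = 0.0649) and without either DKO clone. Without WT clone 57 or 58 the median K27-K4 interaction of the set was -0.27 or 0.50, against -0.40 or 0.51 over all regions.

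The 294 promoter regions lay at 308 genes, of which 155 had no other H3K4me3 promoter region, out of 13923 genes with one. Protein-coding genes were nearest at 80.6% and long noncoding RNA genes at 15.3%, against 92.6% and 5.80% at promoters with reChIP. The start site itself was inside 138 of the 294 regions. The 5 promoters with the most H3K4me3 over IgG-IgG in WT were Dusp27, Pknox1 (a TALE homeodomain factor), Dhrs4, Kmt5c (a histone H4 lysine methyltransferase) and Pcyt1b, and the WT IgG-IgG library had 0 reads at 4 of them and 1 read at Pcyt1b, so the ranking rests on the value entered for 0 reads. On a floor of 3 IgG-IgG reads, WT H3K4me3 was at least 50.7-fold higher at Dusp27, 30.9-fold at Pknox1, 22.4-fold at Dhrs4 and 13.8-fold at Kmt5c. The E14 IgG-IgG library held 15, 11, 21 and 5 reads at these, and in E14 the Dusp27 region stood at 0.30 and 1.17 in H3K4me3 against -0.20 in IgG-IgG. The Pknox1 region stood at 3.60 and 1.54 in WT, 3.48 and 2.87 in DKO and 1.58 and 1.64 in E14, and it lay 150 bp from a reChIP region. Acat2 (chr17:12959851-12961650), a thiolase, and Pex7 (chr10:19907101-19908000), a peroxisomal import receptor, chosen after their values were seen, had start sites inside regions 18750 and 23550 bp from any reChIP region in E14, at 3.56 and 2.02, and 3.67 and 1.97, in WT. In WT K4-K27 they were at 3.36 and 2.61, and 3.81 and 2.09, in the same clones. WT K27-K4 stood at 0.25 and -0.69, and 0.17 and -0.03, and the WT IgG-IgG library at 0.30 (33 reads) for Acat2 and 1.21 (31 reads) for Pex7. WT K4-K27 was thus near total H3K4me3 at both, WT K27-K4 was at or below background, and the Pex7 region overlapped no H3K4me3 region of either genotype.

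Zinc finger genes were present among these promoters. Of 403 genes whose symbol begins with Zfp and a digit, 23 (5.71%) had a promoter region without reChIP, against 1.18% of all genes, and 11 had no other H3K4me3 promoter region. Their 23 regions had lowest, median and highest total H3K4me3 of -2.50, 1.58 and 2.84 in WT clone 57, -1.32, 1.00 and 1.76 in WT clone 58, -0.18, 1.67 and 3.00 in DKO clone 43 and -0.28, 1.37 and 2.53 in DKO clone 53. H3K4me3 regions of the WT clones held 16 and those of the DKO clones 19. None met an H3K27me3 region of E14 or a K27-K4 region of the clones, while K4-K27 regions held 7 in WT and 15 in DKO. Of all 294 promoter regions without reChIP, 1 met an H3K27me3 region of E14, 5 a K27-K4 region of the clones and 90 and 146 a K4-K27 region in WT and DKO. Zfp934 had 2 abutting regions of 300 bp, the one over its start site at 2.40 and 1.76 in WT and 3.00 and 2.53 in DKO.

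Among the other lists, the members were few. The 31 pluripotency genes had 28 with a promoter region with reChIP, and regions without reChIP lay at the promoters of Dppa5a and Zfp42 and in the bodies of 8 (25.8%, against 6.11% of all genes): Dppa5a, Esrrb, Fbxo15, Klf5, Nr0b1, Tet1, Tet2 and Tfcp2l1. Their 20 body regions stood at medians of 1.21 and 0.54 in WT and 1.83 and 1.22 in DKO. Of the 20, 19 had a difference above 0, where 71.4% of the set and 78.5% of its intronic regions did. Tet2 held 7 of the 20 and Tfcp2l1 3, so these regions are not independent, and the Dppa5a region is the one at its promoter. The Zfp42 region, 392 bp from the start site of this pluripotency marker, stood at 2.01 and 0.35 in WT and 2.08 and 1.79 in DKO, with WT clone 58 apart from the other 3. Of 75 cytosolic ribosomal protein genes, 71 had a promoter region with reChIP, and Rps15a had both kinds. Of 55 respiratory chain genes, Ndufs8, a subunit of complex I, alone had its promoter in the set, at 3.15 and 1.82 in WT, 2.94 and 2.41 in DKO and 1.29 and 1.75 in E14, in a region of 3300 bp (chr19:3911401-3914700). Orc4 and Orc5, subunits of the origin recognition complex, were the 2 of 40 DNA replication genes. None was found at the promoters of 31 proteasome, 34 germline, 16 2-cell stage, 42 developmental transcription factor, 15 fibroblast and 20 silent tissue genes or 357 vomeronasal receptor genes, where 1.18% of all genes had one. Of these lists, an H3K4me3 promoter region of any kind was found at 31 proteasome, 12 germline, 0 2-cell stage, 29 developmental, 7 fibroblast, 1 silent tissue and 0 vomeronasal receptor genes. Of 1125 olfactory receptor genes 4 had such a region (Olfr1313, Olfr497, Olfr609 and Olfr619), and of 1179 microRNA genes 7. Gapdh and Klf4, used in the study as H3K4me3-only controls, had their H3K4me3 promoter regions outside the set, so these overlapped an E14 reChIP region. The same held for Meis2, an H3K27me3-only control of the study, and for Tlx1, Pou4f1 and Dlx3, its bivalent loci.

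Away from promoters the highest H3K4me3 over IgG-IgG in WT was inside Ubash3a, Gm38944, Kdm4c (a histone lysine demethylase), Aopep and Pkp4, all with 0 reads in the WT IgG-IgG library, so this ranking too rests on the value entered for 0 reads. WT H3K4me3 there was at least 23.1-fold (Pkp4) to 30.8-fold (Ubash3a) higher on a floor of 3 reads, and the E14 IgG-IgG library held 8 to 15 reads. The Kdm4c region stood at 1.47 and 0.65 in WT and 1.84 and 1.12 in DKO, and its window, printed above, held no CpG. The widest regions were an 11100-bp region inside Prrc2b (chr2:32158351-32169450), an 8550-bp region over the start of B230206L02Rik, and regions of 7950, 7350 and 6750 bp inside Sulf2, Arhgap26 and Bicral. At the Prrc2b region H3K4me3 was 2.01 and 1.13 in WT and 2.37 and 1.76 in DKO, with K4-K27 at 0.88 and -0.04 and 1.71 and 0.99. The Sulf2 region, which abuts a reChIP region, stood at 1.45 and 0.66 against 2.07 and 1.63.

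A small group had high background. All 6 H3K4me3 regions with E14 IgG-IgG above 1 on the log2 scale belonged to the set, chosen after their values were seen. An intronic Cdk5rap2 region of 900 bp (chr4:70377751-70378650) stood at 2.99 in E14 IgG-IgG, 3.87 and 4.8 in E14 H3K4me3, 3.91 and 4.43 in E14 H3K27me3 and 3.97 in WT IgG-IgG, above the WT H3K4me3 values of 2.89 and 3.47. The others lay near Dpy19l1 and Mir101c and inside 2210408I21Rik and Litaf. Of these 6, 4 were among the 35 regions without reChIP that overlapped an H3K27me3 region of E14, which had a median width of 450 bp. None of the 35 met an H3K4me3 region of the clones, and their median H3K4me3 was -0.70 and -0.0027 in WT and -0.57 and -0.40 in DKO. The part of background signal in them was not tested.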

How the data were processed

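The authors aligned reads to mm10 (GRCm38.p6); the submitters' processing notes name Trim Galore 0.6.6, BWA 0.7.13, SAMtools 1.9, Picard 2.6.0, deepTools 3.5.0 and MACS2. The study describes EPIC2 peak calls, but the deposited regions lie on a 150-bp grid, and the caller that made them is not given in the sources used here. The deposited values are log2 RPM per kb of each region, made by the authors in SeqMonk, with 0 reads entered as 0.9 read, so whole reads could be recovered within a tolerance of 0.02. Of the columns in 12 tables, 240 were used and 32 belonged to no sample analysed here. Columns of the authors' annotation were not used.

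The regions and gene lists were chosen with earlier results of these data known. Regions were kept if they overlapped no E14 reChIP region by 1 bp. Place came from RefSeq, and sequence from the GRCm38.p6 genome. Differences were fitted over all 21970 regions with limma 3.58.1 in R 4.3.3 (variance trend, robust), with Benjamini-Hochberg adjustment, and called at a log2 difference above 1 and adjusted p under 0.05. DKO against WT used the 4 libraries of 1 ChIP, and reChIP against total H3K4me3 used 4 libraries per arm. The fits were tested on simulated normal data with 200 regions shifted by 3 log2 units. DKO against WT recovered 50.5% of them in total H3K4me3, 75.5% in total H3K27me3, 48.5% in K4-K27 and 71% in K27-K4. Against total H3K4me3, 95% (K4-K27) and 97.5% (K27-K4) were recovered. The interactions recovered 10% and 20.5%. A low count of calls therefore does not show that levels were unchanged. Named regions were those with the largest changes among the calls in each direction, the highest WT H3K4me3 over IgG-IgG at and away from promoters, the widest, and promoters of listed genes, and a few that met this rule are not reported here. Tables were handled in Python 3.11.15 with numpy 2.4.6, pandas 2.3.3, pysam 0.24.0 and matplotlib 3.10.9.

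The total and the reChIP of a clone come from the same chromatin, so the clone could be a block: deviations of total and reChIP from their group means correlated across regions at 0.174 and 0.154 in WT and at 0.162 and -0.0269 in DKO. WT and DKO clones share no number and cannot be paired. The clones differ as separate lines, and p-values measure only that spread.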

Additional observations from a re-analysis of the deposited data

Results flagged for a closer look

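The interaction of genotype with K27-K4 against total H3K4me3 was called at 1 region, 450 bp near Hpf1, because the difference between K27-K4 and total H3K4me3 was itself different in WT and DKO by 4.76 on the log2 scale (SE 0.875, limma adjusted p = 0.00113). The K27-K4 libraries held 3 and 0 reads in WT and 26 and 10 in DKO, and IgG-IgG of WT clone 57 held 7. The call was lost after centring, after quantile normalisation and without either DKO clone, where the adjusted p from limma was 1. No explanation was tested.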

How the results depend on the processing

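Counts of called regions without reChIP moved with most settings. Shares in brackets are those over all regions tested. Total H3K4me3, DKO against WT (13 called): 136 after centring, 258 after quantile normalisation, 28 without the variance trend, 0 without the lowest quartile, 2 with all 16 clone libraries in 1 fit and 0 to 157 leaving out each clone in turn. Total H3K27me3 (44): 82, 2, 0 without the trend, 0 with 16 libraries and 13 to 103. K4-K27 (36): 6, 3, 269 without the trend, 21 without the lowest quartile, 20 without regions at 0 reads (chosen after seeing the data), 181 with 16 libraries and 0 to 106. K27-K4 (124): 25 after quantile normalisation, 20 without the trend, 66 with 16 libraries and 44 to 372. For K4-K27 against total H3K4me3 322 were called (10.2%). The count was 209 after quantile normalisation (8.83%), 625 without the trend (11.3%) and 117 without the lowest quartile (11.5%). It was 702 with the clone as a block (16.1%) and 0 to 495 leaving out each clone (0% to 14.1%). For K27-K4 against total 2507 were called (69.4%). The count was 1247 after centring (52.3%), 1299 after quantile normalisation (55.2%) and 501 without the lowest quartile (71.3%). It was 2516 with the clone as a block (69.5%) and 2131 to 2484 leaving out each clone (60.3% to 69.5%). The K4-K27 interaction (0) had 1 without the trend, 4 with the block and 0 to 27, and the K27-K4 interaction (1) had 0 after centring, 3 after quantile normalisation, 13 without the trend, 0 without regions at 0 reads and 0 to 68. The lowest quartile and 0-read settings test fewer regions; the other causes were not tested. The promoter share (8.15%) was 9.53% when regions covered by reChIP over less than 0.5 of their length were kept too, 5.63% with reChIP regions extended by 1 kb, 7.13% among the 2259 regions at least 1 log2 unit over IgG-IgG in both E14 replicates, 23.6% with promoters as 5 kb and 5.63% with 1 kb upstream to 100 bp downstream. Among named regions 230 of the alternatives kept the call, 114 lost it and 0 reversed. The settings that lost the most were leaving out DKO clone 43 (25 of 35) or 53 (24 of 35), 1 fit of all 16 clone libraries (16 of 28) and quantile normalisation (15 of 35). The block changed none of the 7 named calls it applied to. Depth limits single regions: a median of 2 to 44 reads, and 0 IgG-IgG reads of WT clone 57 at 956 regions.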
